A study of Mus musculus with 20 samples.

Results

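The endoplasmic reticulum (ER) stress response was followed in mouse hepatocytes through 9 of its genes, Hspa5, Hsp90b1, Dnajb9, Herpud1, Atf6, Ern1, Xbp1, Atf4 and Ddit3, out of 21887 protein-coding genes in the RefSeq annotation. The measurement was chromatin immunoprecipitation and sequencing of H3K27ac, the acetylated form of lysine 27 of histone H3 that marks active enhancers and promoters. For each gene and each library, every deposited H3K27ac region that overlapped the annotated span or the 5 kb on either side of it was taken. The scaled tags of these regions (tags per region brought by the authors to a common library size of 10000000 tags) and their lengths were then summed.

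Old hepatocytes came from C57BL/6J mice of 23 months and young hepatocytes from C57BL/6N mice of 5 months, with 5 H3K27ac libraries of each. Both were isolated by perfusion of the liver, and the labels name no treatment, transgene or deletion in either. Since the substrain changed with age, effects of age and of substrain cannot be told apart in any comparison. Human chromatin was added at 5% as a spike-in, but spike-in scaling is not part of the values used, which are relative to the tags of each library. The labels do not state whether each library is a separate mouse, so p-values measure only the spread between these samples, which may be technical. The 10 input samples entered only through the input value listed for each region.

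Unfolded proteins in the ER are sensed by transmembrane proteins of the ER. Of these, IRE1 (encoded by Ern1) splices the mRNA of Xbp1, ATF6 is cut in the Golgi to release a transcription factor, and PERK (Eif2ak3) phosphorylates a translation initiation factor, which favours translation of Atf4. The factors XBP1, ATF6 and ATF4 then switch on genes of ER chaperones, of ER-associated degradation (ERAD) and, through ATF4, the factor CHOP (Ddit3). Hepatocytes secrete most plasma proteins and carry a large ER.

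The 250 bases before the start site lay under an H3K27ac region in all 10 libraries for the 8 genes that have an entry in the RefSeq promoter table (GRCm38.p6). They were searched on both strands for 4 elements known from this response. The ER stress response element (CCAAT, 9 bases of any kind, CCACG) was found at Hspa5 and Hsp90b1, which is 2 of 8 genes, against 0.113% of 32851 RefSeq promoters. The shorter ERSE-II (ATTGG, any base, CCACG) was found at Herpud1 and in 0.0304% of all promoters. The element bound by ATF4 with its C/EBP partners (TGATGCAA) was found at Herpud1 and in 0.791% of all promoters, and the core of the XBP1 element (TGACGTGG) at 0 of 8 genes and in 0.563% of all. The CCAAT box alone, which the first element contains and ERSE-II contains on the reverse strand, stood before 6 of 8 genes and in 33.8% of all promoters. A match is a description of the letters only. The elements were known from this response beforehand, so the shares over all promoters are no test of the 8 genes. The 3 promoters with matches are shown with these elements in capitals, and the Xbp1 promoter is shown because its H3K27ac region separated the ages by length, although it holds none of these elements. Positions are those of GRCm38.p6, read in the direction of the gene.
Hspa5 (chr2:34771840-34772089, plus strand): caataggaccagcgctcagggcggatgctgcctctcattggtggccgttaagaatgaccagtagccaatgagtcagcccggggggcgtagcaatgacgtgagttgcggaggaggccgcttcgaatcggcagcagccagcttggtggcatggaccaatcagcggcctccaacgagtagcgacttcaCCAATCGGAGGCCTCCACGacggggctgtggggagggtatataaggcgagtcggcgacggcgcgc
Hsp90b1 (chr10:86705445-86705694, minus strand): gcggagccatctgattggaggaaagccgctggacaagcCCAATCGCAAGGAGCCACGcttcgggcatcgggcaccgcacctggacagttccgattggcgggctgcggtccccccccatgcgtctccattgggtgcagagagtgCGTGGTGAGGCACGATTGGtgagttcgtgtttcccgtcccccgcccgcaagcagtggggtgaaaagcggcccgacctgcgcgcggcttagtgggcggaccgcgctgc
Herpud1 (chr8:94386179-94386428, plus strand): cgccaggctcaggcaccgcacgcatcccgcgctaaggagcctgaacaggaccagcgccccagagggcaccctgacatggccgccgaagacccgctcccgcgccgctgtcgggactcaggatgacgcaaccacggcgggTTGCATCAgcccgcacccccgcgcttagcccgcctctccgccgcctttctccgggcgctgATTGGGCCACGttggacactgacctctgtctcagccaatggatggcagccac
Xbp1 (chr11:5520391-5520640, plus strand): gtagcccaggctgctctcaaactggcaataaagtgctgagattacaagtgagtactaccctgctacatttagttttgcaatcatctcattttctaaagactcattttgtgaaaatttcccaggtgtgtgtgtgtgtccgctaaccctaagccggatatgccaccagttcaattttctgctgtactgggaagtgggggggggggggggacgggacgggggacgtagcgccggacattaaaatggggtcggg
In Hspa5 the ER stress response element spans bases 65 to 47 before the start. Hsp90b1 holds this element on the gene's strand at bases 212 to 194 and on the reverse strand at bases 107 to 89. In Herpud1 the ATF4 element lies on the reverse strand at bases 112 to 105 and ERSE-II at bases 52 to 42.

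All 9 genes carried H3K27ac in all 10 libraries, and none passed the test for a difference between old and young hepatocytes. By limma with Benjamini-Hochberg adjustment over the 9703 gene windows called in every library, 0 of 9 genes differed in scaled tags, and 0 of 9 had an unadjusted p below 0.05. Over all tested windows 12 were higher in old (0.124%) and 9 lower (0.0928%), with 1329 at an unadjusted p below 0.05, so a set of 9 genes with no call is near the background. The log2 differences, old minus young after each library was centred on its median window, ran between −0.39 at Ern1 and 0.18 at Ddit3, with a median of −0.07 against 0.00 for all windows. They were positive for 2 genes and negative for 7. In bulk chromatin, a change in how many cells carry the mark and a change in the mark per cell cannot be told apart.

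**Figure D1:**
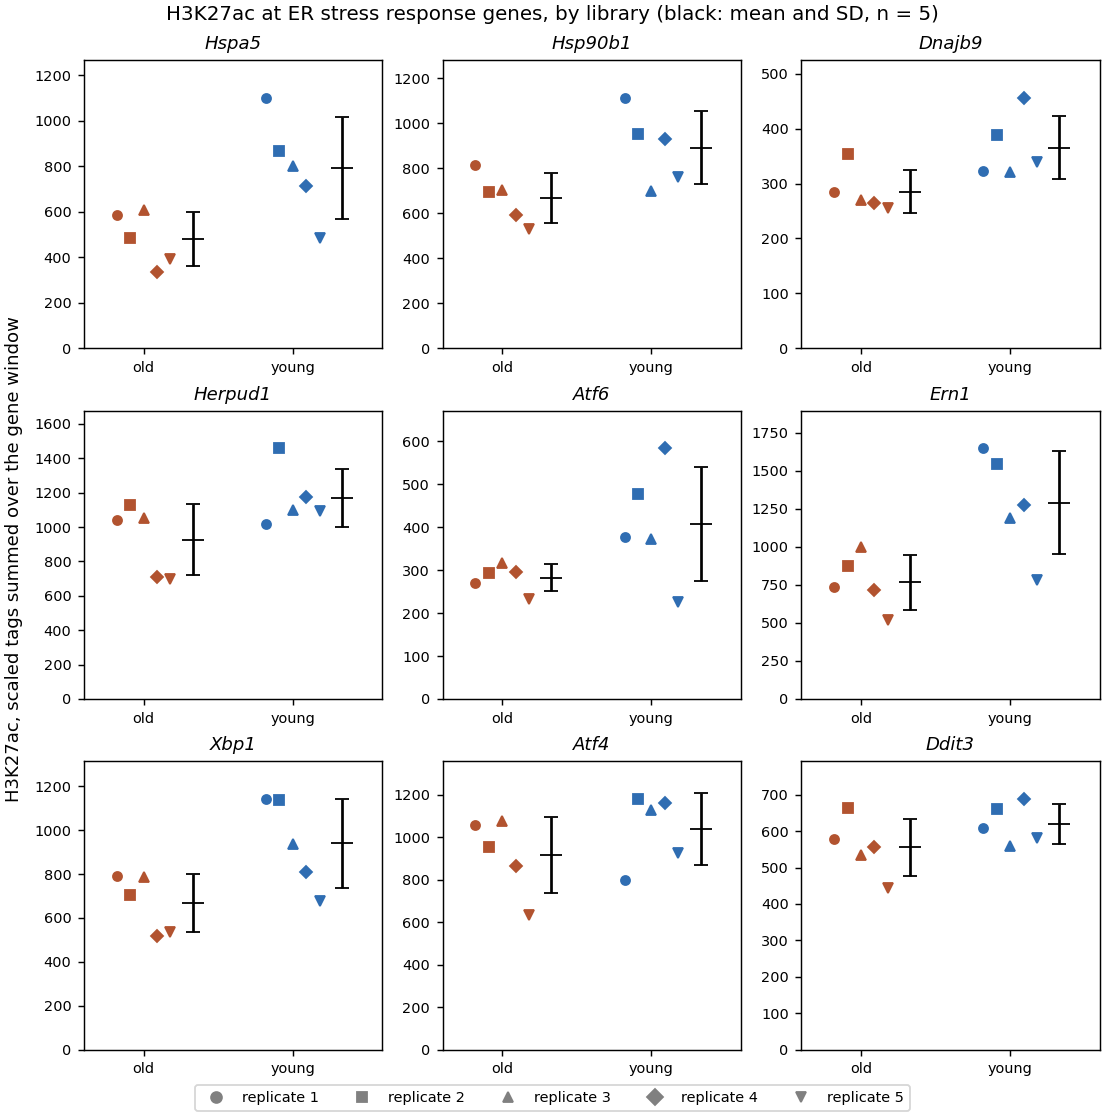
Scaled tags (vertical axis, from 0) summed over the gene window for each of the 9 genes in the 5 old and 5 young libraries, with marker shapes for replicate numbers and black bars for mean and SD (n = 5). The old mean is below the young mean in every panel, and the points of both ages overlap in every panel.

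The uncentred levels carried a general offset between the ages that reached beyond these genes. The median window held 275 ± 38.4 scaled tags in old and 350 ± 65.1 in young libraries (SD, n = 5 each), a difference that did not pass the test (two-sided exact permutation p = 0.0635, where 0.00794 is the smallest p that 5 against 5 can give). Called regions contained 31.9 ± 4.81% of all tags in old and 40.2 ± 6.62% in young libraries (exact permutation p = 0.0476), and total tags ranged from 6295930 to 15544145. With 1 library left out, that share stayed under the threshold only without young library 3 (exact permutation p = 0.0317) or 5 (p = 0.0159) and reached p = 0.167 without old library 5, while the median window passed it only without young library 1 (difference −90.4 scaled tags, exact permutation p = 0.00794). Without centring, all 9 genes were lower in old, while the median of all windows was −0.34. Each of the 9 genes is therefore given both as scaled tags and as its centred difference. Differences given for other genes of the pathway are centred unless stated otherwise.

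Among the sensors, Ern1 showed the most negative centred difference of the 9 genes. Its window (chromosome 11, gene at 106397620 to 106487796 on the minus strand) held 732, 874, 996, 718 and 516 scaled tags in old libraries 1 to 5, against 1646, 1543, 1190, 1275 and 785 in young libraries 1 to 5. Old libraries 1, 4 and 5 lay below every young library, old libraries 2 and 3 lay above young library 5, and young libraries 1 and 2 were the highest. The means were 767 ± 181 in old and 1288 ± 338 in young (SD, n = 5 each), and the centred log2 difference was −0.39 with a standard error of 0.19 (95% interval −0.81 to 0.02, limma adjusted p = 0.382). Without centring it was −0.74, the nearest of the 9 genes in scaled tags to the threshold (limma adjusted p = 0.0656). Without young library 1 the centred value was −0.23, and with it the ratio to the same library's median window had been 5.66 in that library against 2.52 to 3.87 in the other young libraries and 2.37 to 3.32 in the old ones.

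The Ern1 window held the most separate regions, 7 to 12 in old and 8 to 13 in young libraries. Overlapping regions from the 10 libraries were joined into merged regions, and the one over the start site (106479005 to 106494996) held 497 ± 97.1 scaled tags in old and 860 ± 203 in young libraries (SD, n = 5 each). Its centred log2 difference was −0.48 with a standard error of 0.15 (limma adjusted p = 0.137 over 12550 merged regions, unadjusted p below 0.05), and it passed the threshold only without centring (−0.78, adjusted p = 0.0382). Inside the gene, 2 further regions were called in every library. The one at 106409507 to 106415265 held 102 ± 58.7 scaled tags in old and 153 ± 48.0 in young, and the one at 106461295 to 106464290 held 64.5 ± 11.8 in old and 85.3 ± 29.4 in young. Neither passed the limma test (adjusted p = 0.556 and 0.917). Expressed per kb of called length, the window's difference was 0.03 and that of the start-site region −0.04, so the tags differed together with the called length. That length was 17303 ± 5064 bp in old and 25205 ± 3136 bp in young libraries (log2 difference −0.43, limma adjusted p = 0.494, unadjusted p below 0.05).

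Atf6, the sensor that becomes a transcription factor, was weakly marked for its size of 164129 bp (chromosome 1, 170704457 to 170868585). It held 271, 293, 316, 296 and 233 scaled tags in old libraries 1 to 5, against 378, 477, 373, 584 and 225 in young libraries 1 to 5. The old libraries lay close together and the young ones spread widely, with young library 5 below all old ones. The centred log2 difference was −0.13 with a standard error of 0.17 (95% interval −0.49 to 0.24, limma adjusted p = 0.766), and its sign turned with the flank or the use of called length (0.18 on tags per kb, 0.07 with no flank). It was −0.05 without young library 4 and −0.29 without young library 5. A region over the high-coordinate end of the gene was called in all 10 libraries, with 223 ± 30.5 scaled tags in old and 278 ± 47.8 in young (log2 difference −0.02, adjusted p = 0.961). None was called over the low-coordinate end, and the table of genes used gives no strand for Atf6. The other region called in every library lay at 170692176 to 170699484, beyond the low end. Whole regions are summed once they overlap a window, and this one reached into the window in young library 4 alone, by 27 bp. It adds 270 of the 584 scaled tags of that library, which held 313 without it. When at least 0.5 of a region had to lie inside the window, the centred difference was 0.05. The gene Gm29733 overlaps Atf6 in the annotation.

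The transcription factor Xbp1 (chromosome 11, 5520641 to 5525993) was the only one of the 9 genes to separate the ages completely in called length. The called length was 4794, 4570, 5657, 4434 and 4367 bp in old libraries 1 to 5, against 6997, 7645, 6487, 6016 and 5833 bp in young libraries 1 to 5. Every old library was shorter than every young one. These lengths are uncentred, and over all windows the median log2 difference in called length was −0.15 without centring. The mean called region measured 1788 ± 99.7 bp in old and 1932 ± 126 bp in young libraries (SD, n = 5 each, exact permutation p = 0.0952). All old lengths below all young ones were found in 372 of 9703 windows (3.83%), against 1 of the 9 genes, and the centred difference of −0.31 did not pass the test (standard error 0.17, limma adjusted p = 0.589). Over all windows, 1 called length was higher in old (0.0103%) and 0 lower (0%), with 949 at an unadjusted limma p below 0.05. Among the 9 genes only Ern1 was at such a p.

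At the start site of Xbp1 the young regions reached further into the gene, with similar distances upstream. Downstream of the start the region ran 3532, 2953, 3397, 3187 and 3238 bp in old libraries 1 to 5, against 6035, 6244, 4880, 4379 and 4298 bp in young libraries 1 to 5. Such a separation, with every old extent below every young one, was found at 176 of 4174 start sites with a region in all 10 libraries (4.22%), against 1 of the 8 genes. The downstream extent is a part of the called length given above and not a separate observation. Upstream it ran 1129 to 1617 bp in old and 962 to 1637 bp in young libraries. Scaled tags in the window were 790, 705, 788, 518 and 535 in old libraries 1 to 5, against 1143, 1136, 937, 811 and 675 in young libraries 1 to 5, which overlapped through young library 5. The centred log2 difference in tags was −0.15 with a standard error of 0.17 (95% interval −0.53 to 0.23, limma adjusted p = 0.732). It was −0.01 without young library 1 and 0.16 on tags per kb. The window also holds an end of Ccdc117, and the merged region over Xbp1 touched no other gene end.

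Atf4, the factor downstream of PERK, and Ddit3, its target that encodes CHOP, were the 2 genes with positive centred differences. Atf4 (chromosome 15, 80255184 to 80257545) held 1056, 954, 1075, 864 and 635 scaled tags in old libraries 1 to 5, against 797, 1180, 1129, 1161 and 927 in young libraries 1 to 5. The ages were interleaved, with old library 5 lowest and young library 2 highest. The log2 difference was 0.15 with a standard error of 0.10 (95% interval −0.07 to 0.38, limma adjusted p = 0.529). It was −0.19 without centring and −0.01 on tags per kb. Its merged region also covers an end of Mief1, and an end of Rps19bp1 falls in the window.

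Ddit3 (chromosome 10, 127290793 to 127296291) held 580, 664, 533, 556 and 445 scaled tags in old libraries 1 to 5, against 608, 661, 559, 689 and 580 in young libraries 1 to 5. This was the narrowest spread of any of the 9 genes among young libraries, and both ages overlapped. The log2 difference was 0.18 with a standard error of 0.10 (95% interval −0.04 to 0.40, limma adjusted p = 0.456) and −0.16 without centring. On tags per kb it was 0.33 (95% interval 0.06 to 0.61, limma adjusted p = 0.370, unadjusted p below 0.05), with 114 ± 10.6 tags per kb in old and 103 ± 14.9 in young libraries (SD, n = 5 each). Of all windows, 8 were higher in old on tags per kb (0.0824%) and 1 lower (0.0103%). On this measure 1032 of the 9703 windows were at an unadjusted limma p below 0.05, and among the 9 genes only Ddit3 was. Mbd6 and Mars1 overlap Ddit3 in the annotation. An end of Mbd6 lies in the region over the Ddit3 start, and no end of Mars1 lies in a merged region of the window.

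**Figure D2:**
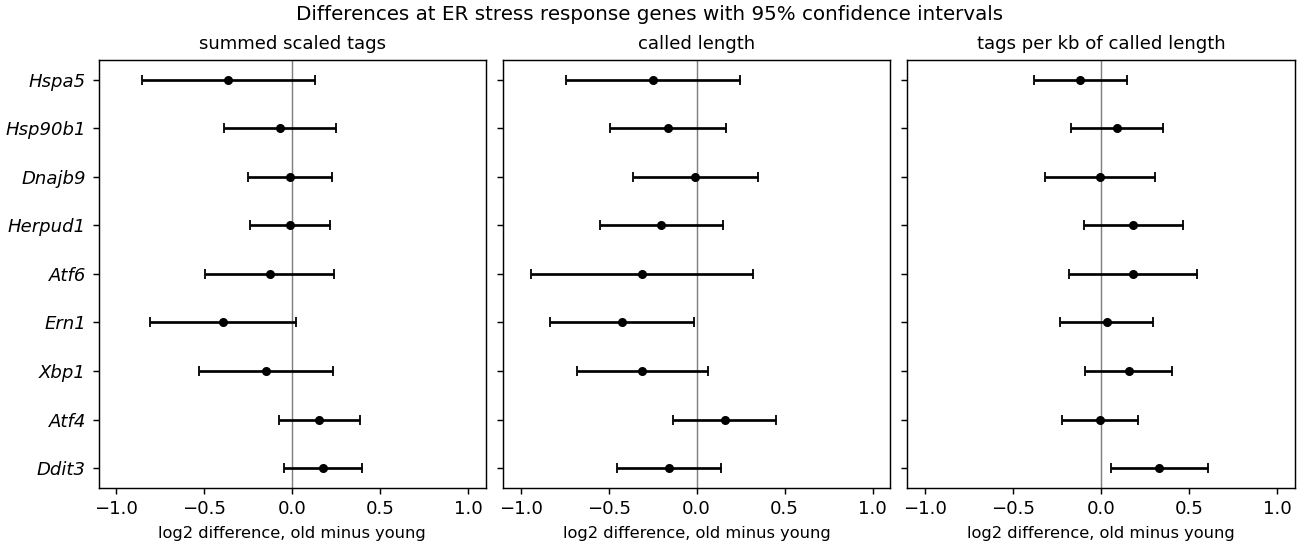
Log2 differences, old minus young, with 95% confidence intervals (limma, each library centred on its median window) for 3 measures at the 9 genes: summed scaled tags, called length, and tags divided by called length in kb. For tags every interval includes 0; the intervals that do not include 0 are the called length of Ern1 and the tags per kb of Ddit3, and neither passed after adjustment.

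Among the chaperones, Hspa5, which encodes BiP, the ER form of the HSP70 family and the usual readout of this response, had the most negative centred difference after Ern1. Its window (chromosome 2, gene at 34772090 to 34776529) held 585, 484, 607, 336 and 392 scaled tags in old libraries 1 to 5, against 1101, 865, 800, 712 and 483 in young libraries 1 to 5. Each old library was under the median of the young ones, and only young library 5 lay within the old range. The means were 481 ± 118 in old and 792 ± 225 in young (SD, n = 5 each), and the centred log2 difference was −0.36 with a standard error of 0.22 (95% interval −0.85 to 0.13, limma adjusted p = 0.489). Without young library 1 it was −0.17. Relative to its own median window, that library held 3.78 at Hspa5, against 1.33 to 2.02 in the old and 1.55 to 2.60 in the other young libraries. An end of Rabepk, which overlaps Hspa5 in the annotation, lies in the same region.

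Hsp90b1, which encodes the ER chaperone GRP94 (chromosome 10, 86690841 to 86705444), held 815, 693, 705, 594 and 532 scaled tags in old libraries 1 to 5, against 1113, 950, 701, 931 and 762 in young libraries 1 to 5. Old libraries 1 and 3 lay within the young range. Its centred log2 difference was −0.07 with a standard error of 0.15 (95% interval −0.39 to 0.25, limma adjusted p = 0.858), and 0.08 without young library 1. The region over its start site, which also holds an end of Ttc41, ran 2010 to 3230 bp into the gene in old and 2760 to 6423 bp in young libraries, with upstream parts of 1945 to 3121 bp in old and 2243 to 2944 bp in young.

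Dnajb9, which encodes the BiP co-chaperone ERdj4 (chromosome 12, 44205897 to 44210068), carried 1 compact region in each library. It held 284, 354, 270, 265 and 255 scaled tags in old libraries 1 to 5, against 323, 388, 322, 456 and 339 in young libraries 1 to 5. Of the old libraries only library 2 reached the young range. The centred log2 difference was −0.01 with a standard error of 0.11 (95% interval −0.25 to 0.23, limma adjusted p = 0.973), and the region measured 2238 to 2654 bp in old and 2639 to 3075 bp in young libraries.

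Herpud1, whose product takes part in ERAD (chromosome 8, 94386429 to 94395371), was among the most densely marked of the 9 genes. It held 1043, 1127, 1053, 708 and 697 scaled tags in old libraries 1 to 5, against 1019, 1458, 1099, 1174 and 1094 in young libraries 1 to 5. Old libraries 4 and 5 stood below all others. The centred log2 difference was −0.01 with a standard error of 0.10 (95% interval −0.24 to 0.21, limma adjusted p = 0.965). The window held 1 to 2 called regions in old and 2 to 6 in young libraries, the additional ones being short and weak, with young means of 2.18 to 12.4 scaled tags against 1139 in the region over the start site.

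**Figure D3:**
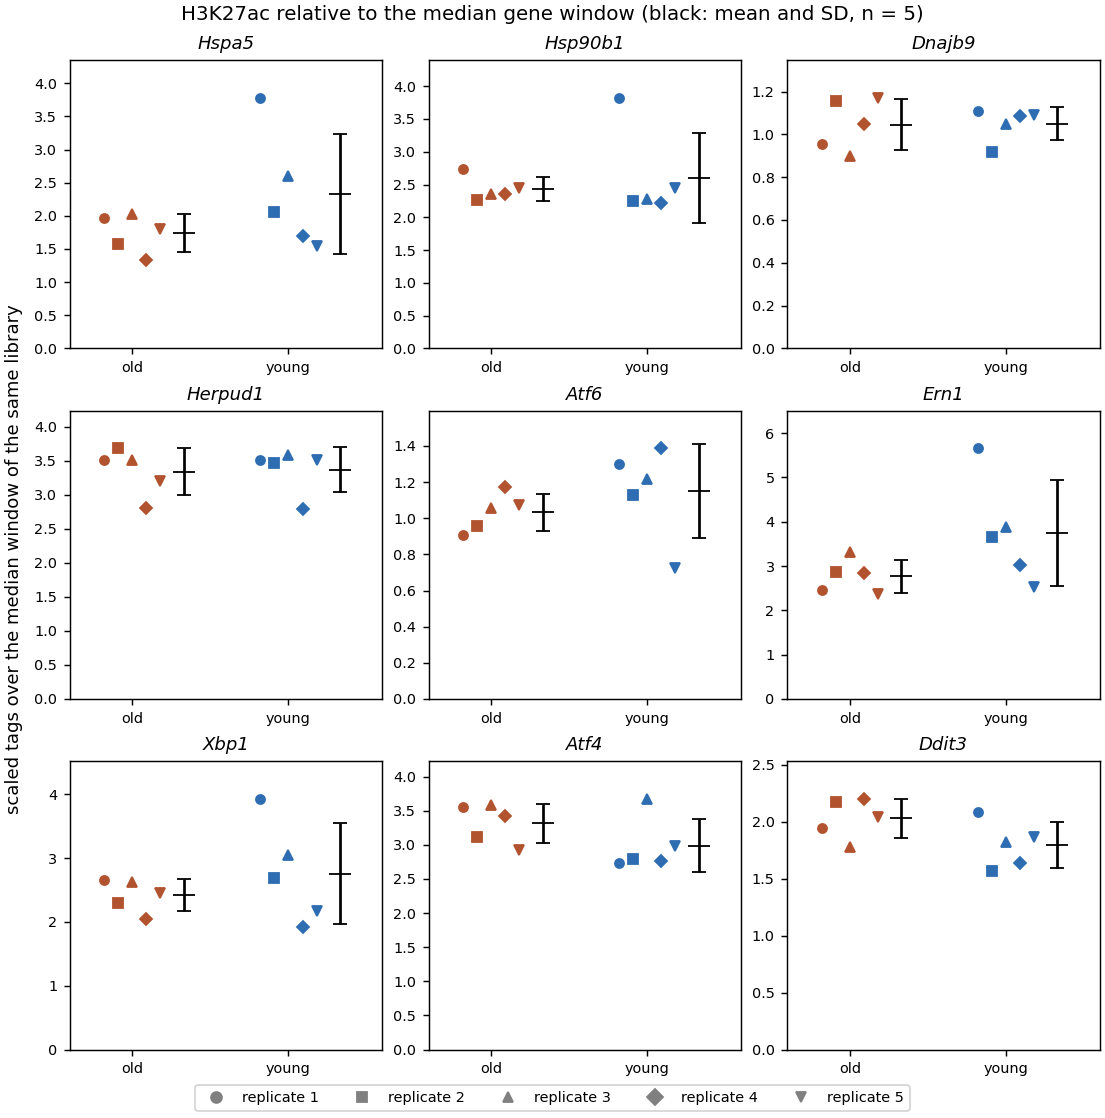
Scaled tags of each gene window divided by the median gene window of the same library (vertical axis, from 0), by age, with marker shapes for replicate numbers and black bars for mean and SD (n = 5). Young replicate 1 stands above the other libraries at Hspa5, Hsp90b1, Ern1 and Xbp1, and at Atf4 it is the lowest of the 10.

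Old library 5, which had the lowest share of tags in called regions (24.5%), held the lowest scaled tags at 6 of the 9 genes, and young library 1 the highest at 4. Relative to the median window, young library 1 was still the highest of all 10 libraries at the same number of genes, namely Hspa5, Hsp90b1, Ern1 and Xbp1. Its median window, at 291 scaled tags, was the lowest of the young libraries. Without this library the median of the 9 centred differences was 0.00, with 5 genes positive and 4 negative. Young library 5 had an estimated fragment length of 620 bp, against 414 to 444 bp in the other 9, and without it the median was −0.08.

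No member separated the ages completely in scaled tags. Old libraries all lay below young ones in 896 of the 9703 windows (9.23%) and all above in 8 (0.0824%), against 0 of 9 genes in either direction. Of the 13 merged regions in these windows that were called in all 10 libraries, 0 passed the limma test, and 1 had an unadjusted p below 0.05 (the start-site region of Ern1). Over all 12550 such regions 2156 were at such a p (17.2%), and by the adjusted p 67 were higher in old (0.534%) and 67 lower (0.534%).

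**Figure D4:**
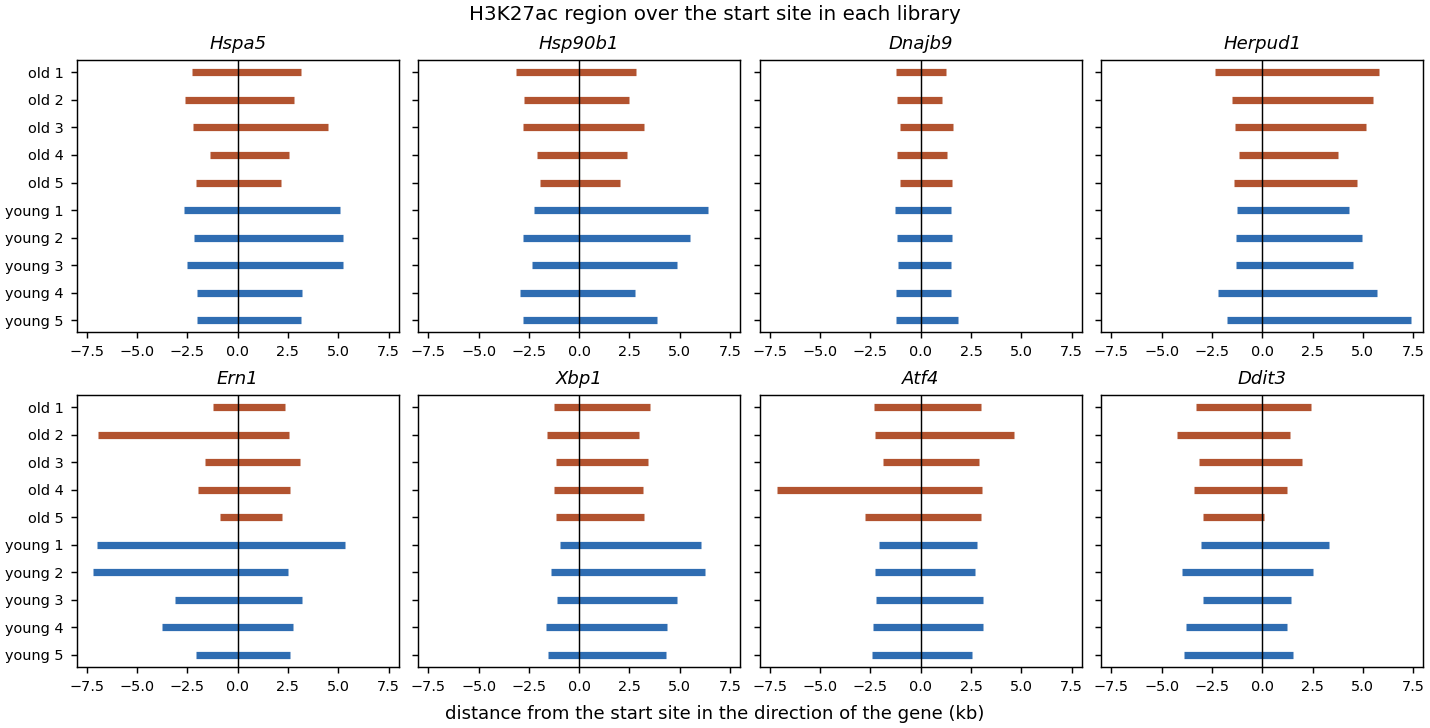
Extent of the H3K27ac region over the start site in each library (old above, young below) for the 8 genes with a known start, as distance from the start in kb in the direction of the gene. At Xbp1 the bars end 2953 to 3532 bp downstream in old and 4298 to 6244 bp in young libraries; at Dnajb9 they are short, and single libraries reach up to 7200 bp upstream at Ern1 and 7157 bp at Atf4.

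By density of the mark, Xbp1 and Herpud1 were highest and Atf6 and Ern1 lowest of the 9 genes at both ages. Averaged over the 10 libraries, Xbp1 held 140 tags per kb of called length and Herpud1 138, followed by Dnajb9 with 124, Atf4 with 112, Ddit3 with 108, Hspa5 with 105 and Hsp90b1 with 103. Atf6 with 62.9 and Ern1 with 47.8 tags per kb came last. The median over all tested windows was 82.0 tags per kb, and Xbp1 stood at the 91.3 percentile of windows while Ern1 stood at the 10.4 percentile. Xbp1 (139 ± 20.4 in old, 141 ± 17.6 in young) and Herpud1 (138 ± 19.9 in old, 138 ± 24.9 in young) differed by less than their SD. Ddit3 (114 ± 10.6 in old, 103 ± 14.9 in young) stood above Hspa5 (93.4 ± 8.72 in old, 116 ± 18.6 in young) by the old means and below it by the young ones, which was not tested. The gap between Hsp90b1 (99.2 ± 5.97 in old, 106 ± 14.7 in young) and Atf6 (63.7 ± 18.6 in old, 62.0 ± 5.59 in young) was larger than these SDs. Atf6 and Ern1 are long genes. Their windows also hold weaker regions away from the Ern1 start site and the high-coordinate end of Atf6. Whether this bears on their density was not tested.

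The rest of the pathway was read from 4 lists of other genes. Of 11 tested sensors and transducers of 13, 4 had positive and 7 negative differences (median −0.03), 0 passed limma's adjusted threshold and 1 had an unadjusted p below 0.05, against 1329 of all 9703 windows (13.7%). The extremes were Traf2, an adaptor of IRE1 signalling, at 0.28 (adjusted p = 0.382) and Creb3l2, an ER-bound transcription factor, at −0.49 (adjusted p = 0.442). Before centring, Traf2 held 195 ± 28.7 scaled tags in old and 203 ± 32.4 in young libraries. Creb3l2 held 396 ± 74.1 in old and 741 ± 283 in young. Eif2ak3, which encodes PERK, held 418 ± 84.2 scaled tags in old and 548 ± 133 in young libraries, with a centred difference of −0.03 (adjusted p = 0.955).

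No gene of the ATF4-branch, chaperone or XBP1 lists was called by limma in scaled tags. Over all 9703 windows 4888 centred differences were positive and 4815 negative, and 13.7% were at an unadjusted p below 0.05. Genes of a list were left untested where some library had no called region in the window. Of 15 tested ATF4-branch targets of 26, 12 centred differences were positive and 3 negative, with a median of 0.12 and 2 at an unadjusted p below 0.05. Before centring, all 26 genes together held 6452 to 9678 scaled tags in old and 8267 to 13057 in young libraries. Of 15 tested ATF6 targets and ER chaperones of 16, 3 were positive and 12 negative, with a median of −0.17 and 1 at an unadjusted p below 0.05. On tags per kb these medians were 0.06 and −0.02. Of 24 tested XBP1 targets, translocation and ERAD genes of 28, 7 were positive and 17 negative, with a median of −0.09 (0.04 on tags per kb) and 5 at an unadjusted p below 0.05. The extremes of the chaperone list were P4hb, which encodes protein disulfide isomerase, at 0.17 (limma adjusted p = 0.544) and Dnajb11, a BiP co-chaperone, at −0.91 (adjusted p = 0.276). Before centring, P4hb held 1387 ± 218 scaled tags in old and 1581 ± 397 in young libraries, and the gene Arhgdia also reaches into its window.

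Dnajb11 held 704, 686, 2030, 1350 and 522 scaled tags in old libraries 1 to 5, against 2914, 2987, 2133, 1833 and 1557 in young libraries 1 to 5. Its old libraries fell into wide and narrow calls, with called lengths of 21398 and 20093 bp in old libraries 3 and 4 and 7919 to 8837 bp in the others, and on tags per kb the difference was −0.14 (adjusted p = 0.740). The window also holds an end of Tbccd1. Ube2g2, a ubiquitin-conjugating enzyme of ERAD, held 583, 439, 486, 362 and 287 scaled tags in old libraries 1 to 5, against 732, 980, 677, 832 and 655 in young libraries 1 to 5, with no overlap. Its difference was −0.53 (limma adjusted p = 0.0759) and 0.07 on tags per kb, and an end of Sumo3 lies in its window. Complete separation with old below young was found in 1 of the 11 sensors and transducers, 2 of the 15 ATF4-branch targets, 3 of the 15 chaperones and 2 of the 24 genes of the XBP1 list, and in 0 of any list with old above young. Over all windows the share was 9.23% (896 of 9703).

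Fgf21, a hormone of the liver that ATF4 is known to induce, had the largest positive difference of the 4 lists. It held 242, 180, 201, 188 and 178 scaled tags in old libraries 1 to 5, against 32.3, 219, 20.4, 137 and 105 in young libraries 1 to 5. Young libraries 1 and 3 were far below the rest, and young library 2 was within the old range. The log2 difference was 1.75 in scaled tags (limma adjusted p = 0.157) and 1.02 on tags per kb (adjusted p = 0.0119), where it was one of the 8 windows above the threshold. On tags per kb the old libraries held 49.9 to 80.9 and the young ones 26.7 to 53.0. The call on tags per kb was lost without old library 4 (adjusted p = 0.0626) or 5 (adjusted p = 0.0723) with the share of tags in regions as a covariate (adjusted p = 0.0926), and with the replicate block (adjusted p = 0.0528). The window also holds an end of Fut1. Ppp1r15a, which encodes the phosphatase subunit GADD34 of the same branch, was the lowest of that list at −0.24 (adjusted p = 0.434). Before centring, Ppp1r15a held 457 ± 59.0 scaled tags in old and 693 ± 140 in young libraries. The genes Tulp2 and Plekha4 also reach into its window. Dnajc10, an ER reductase of the XBP1 list, had 63.1, 107, 82.4, 93.8 and 84.2 scaled tags in old libraries 1 to 5, against 19.3, 118, 23.8, 97.1 and 68.5 in young libraries 1 to 5 (1.05, limma adjusted p = 0.298), again with young libraries 1 and 3 low.

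**Figure D5:**
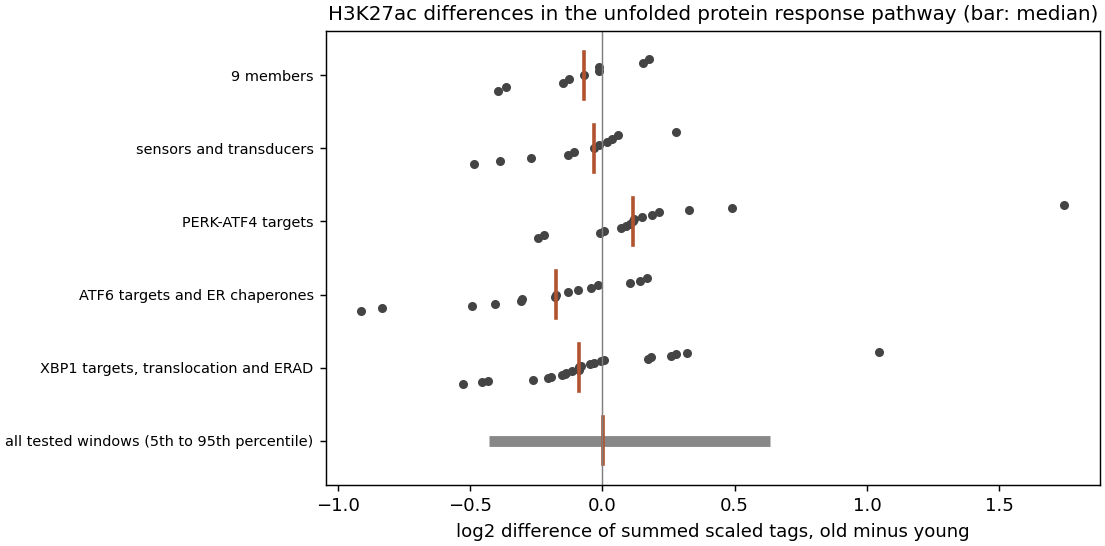
Log2 differences of summed scaled tags, old minus young, for the 9 genes and the tested genes of the 4 pathway lists (points; bar for the median), above the 5th to 95th percentile of all tested windows (−0.43 to 0.63). Each library was centred on its median window. The median is 0.12 for ATF4-branch targets and −0.17 for ATF6 targets and chaperones, and most points lie inside the range of all windows.

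All 10 hepatocyte markers were tested, with a summed level of 4478 to 7206 scaled tags in old and 8074 to 10976 in young libraries. Summed over the windows of all 21887 genes, the levels were 2871570 to 4168270 in old and 4126080 to 5839230 in young. All 10 markers had a negative centred difference (median −0.35 in tags and −0.04 on tags per kb), 5 had an unadjusted limma p below 0.05 and 0 passed. Over all windows 4815 of 9703 were negative (49.6%) and 13.7% were at such a p. Markers of other liver cells differed by type in how many had no region. Of the macrophage markers 6 of 7 had none in any library, and the list summed to 0 in old and 0 to 12.5 scaled tags in young libraries. For stellate cells 5 of 6 had no region in any library, namely Lrat, Dcn, Pdgfrb, Des and Ngfr (sums of 44.5 to 103 in old and 0 to 144 in young). For cholangiocytes 3 of 5 had none, namely Krt19, Krt7 and Epcam (222 to 520 in old and 253 to 580 in young, with Sox9 tested). For sinusoidal endothelium Kdr alone of 7 had none (138 to 519 in old and 281 to 421 in young, with Stab2 tested). For lymphocytes 3 of 6 had none, Ptprc and Cd3e among them (535 to 802 in old and 524 to 1092 in young, with Cd3g and Nkg7 tested). Absence of a call does not show absence of signal below the calling threshold. The part of these levels in the values of the 9 genes was not tested.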

How the data were processed

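H3K27ac regions of 10 hepatocyte libraries (5 old, 5 young) were read from lists deposited by the authors. Per the file headers, HOMER had called them in histone mode, each library against its own input, from peaks of 500 bp set at least 1000 bp apart, with a 4-fold excess over input at a Poisson p of 0.0001. Coordinates are mm10 (named in the submitters' processing notes), and which aligner was used is not given in the sources used here. As the main value served the signal of each region, tags scaled by the authors to 10000000 per library. Length in bp, an other unit, is the deposited width of each region. The unscaled tags were deposited in steps that need not be whole and were treated like expected counts, rounded to whole numbers for edgeR and DESeq2. The score, the scaled input signal and the fold over input (a ratio) are the authors' values, per the file headers, and were used to filter or describe regions within a list. Whole regions were summed wherever they overlapped a window by at least 1 bp, so each sum depends on how much was called, and a density in tags per kb stands beside it. Regions were called separately in each library, so borders differ between libraries. Depth was 6295930 to 15544145 tags per library.

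Windows called in all 10 libraries were tested with limma 3.58.1 (mean-dependent prior, log2 of scaled tags plus 1, each library centred on its median window, Benjamini-Hochberg over all 9703 windows, threshold 0.05). Fold changes on that scale understate those of weak windows. Alternatives were the quasi-likelihood test of edgeR 4.0.16 and DESeq2 1.42.0, both on rounded tags, other flanks, filters, scalings, a replicate block and leaving out each library. All 9 genes were named, and of each pathway list the counts, genes past the threshold and both extremes; Eif2ak3, the extents around start sites and the Fgf21 alternatives on tags per kb were added after the values had been seen, as were the values without single libraries for the share of tags in regions. The 9 genes and the lists were chosen with earlier results of these data known. The limma test of scaled tags in gene windows was first run on simulated tags, with the same dispersion in every window. Genes, promoters and positions came from RefSeq tables of GRCm38.p6, the assembly that mm10 corresponds to; all 9 genes matched the gene table and 8 the promoter table. R 4.3.3, Python 3.11.15, numpy 2.4.6, scipy 1.17.1, pandas 2.3.3 and matplotlib 3.10.9 were used.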

Additional observations from a re-analysis of the deposited data

Results flagged for a closer look

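Among 72 groups of 5 libraries (the 9 genes at each age on several measures), a single library stood apart from the other 4 of its age in 5, by Dixon's criterion with a critical value of 0.71. Chance alone marks about 1 in 20 such groups. Dnajb9 held 158 tags per kb in old library 2, against 98.5 to 114 in the other old libraries. Atf4 held 91.4 tags per kb in young library 5, the library with the longest estimated fragments, against 120 to 131 in the other young libraries. Relative to the median window, Atf4 reached 3.67 in young library 3, against 2.74 to 2.98 in the others of that age. Herpud1 was at 2.79 in young library 4, against 3.46 to 3.58 in the other young libraries. Hsp90b1 was at 3.83 in young library 1, against 2.21 to 2.45 in the other young libraries. The cause of these values was not tested.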

How the results depend on the processing

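In every alternative run for tags or called length of the window, 0 of the 9 genes passed the threshold. On tags per kb 0 of the 9 genes passed as well, but this measure was run for them under the main settings only. Of the alternatives for single genes and regions, 482 kept the direction and side of the threshold, 49 turned the sign, 1 passed the threshold (the start-site region of Ern1 without centring) and 4 lost it (Fgf21 on tags per kb, among them the replicate block, adjusted p = 0.0528). The cause of these changes was not tested. The number of windows called by limma was 21, and 9 on tags per kb, 87 without centring (2 higher and 85 lower in old), 56 with cyclic loess, 5 over windows called in at least 5 libraries, 11 with no filter, 47 with edgeR and TMM, 47 with edgeR and DESeq2 size factors and 298 with DESeq2. It was 0 under a stricter score threshold (505 at an unadjusted limma p below 0.05, where 4 of the 9 genes were left) and 0 with the share of tags in regions as a covariate (1204 at such a p). Leaving out 1 library gave 2 (without old library 4) to 68 windows (without young library 1). For called length the count was 1, and 0 without centring (1281 at an unadjusted p below 0.05) or over windows called in at least 5 libraries (997), and 0 to 7 with 1 library left out. For merged regions it was 134, and 40 on tags per kb, 725 without centring (28 higher and 697 lower in old), and 30 to 255 with 1 library left out. The difference of the median window lay between −90.4 and −57.7 scaled tags with 1 library left out.

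No pairing of the libraries by replicate number was seen, although the values below cannot exclude shared handling. The deviations of equally numbered libraries correlated at −0.036, 0.180, 0.133, −0.040 and −0.060, and only number 3 had its own number as best match. With the replicate block, 4 windows, 6 called lengths and 74 merged regions were called, and no call among the 9 genes or their regions changed.

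On tags per kb the sign turned for the windows of Atf4 (−0.0072), Atf6 (0.18), Xbp1 (0.16), Ern1 (0.032), Herpud1 (0.18) and Hsp90b1 (0.091), and for merged regions of Atf4 (−0.0073), Atf6 (0.055 at the high end), Xbp1 (0.14), Ern1 inside the gene (0.15 and 0.057) and Hsp90b1 (−0.20 beyond the gene and 0.15 at the start). Without centring it turned for the windows of Atf4 (−0.19) and Ddit3 (−0.16), the called length of Atf4 (−0.0008) and regions of Atf4 (−0.19), Atf6 (−0.16) and Ddit3 (−0.15). With cyclic loess Herpud1 was at 0.033. With no flank Atf6 was at 0.070, Herpud1 at 0.020 and Dnajb9 at 0.0070, and Atf6 was at 0.085 with 10 kb and 0.050 when at least 0.5 of a region had to lie in the window. With 1 library left out, the window differences ranged between −0.080 and 0.048 at Herpud1, −0.058 and 0.041 at Dnajb9, and −0.12 and 0.077 at Hsp90b1. The called length of Dnajb9 ranged between −0.11 and 0.066, and regions between −0.073 and 0.040 at the Atf6 high end, −0.14 and 0.040 inside Ern1, −0.11 and 0.0071 at Dnajb9 and −0.086 and 0.034 at Herpud1.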
